A study of Homo sapiens with 12 samples.

Results

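The long arm of chromosome 10 held 2 neighbouring stretches whose genes differed in opposite directions between KO and WT MDA-MB-231 cells. The genes studied were the 325 features of the deposited expression table that lie on chromosome 10 of hg19 from 60 Mb onward and have a mean of at least 0.5 FPKM (fragments scaled to the length of the transcript in kilobases and to the mapped fragments of the library) over the 6 WT libraries. They were taken from 581 features listed there and from 12126 features of 24331 in the whole table that pass the same limit. The limit used WT values, and the region itself was selected on the KO to WT ratio, which had been seen to be raised in its first part and lowered in the rest. All KO to WT values below are therefore descriptions of the contrast that chose these genes, given without a test.

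MDA-MB-231 is an established, aneuploid line of metastatic breast cancer cells that lack hormone receptors. The WT cells carry the intact ETS1 gene. In the KO cells (ΔCRE) a pair of CRISPR/Cas9 guides had removed NFAT and NF-κB binding sites from the core regulatory element (CRE) of the ETS1 promoter, and cells with the deletion were picked by PCR. Both genotypes were compared at 0, 6 and 24 h of PMA/Ionomycin (a phorbol ester and a calcium ionophore that switch on protein kinase C and calcium signalling), with 2 biological replicates for each genotype and time and 12 libraries in all. The number of clones behind the KO libraries was not stated in the sources used here, so the deletion and a clone cannot be told apart. Only RNA was measured, so the DNA copy number of these genes is not known for either genotype.

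ETS1, the gene whose element was deleted, was at 16.5 FPKM in KO 0h replicate 2 (5.08 in replicate 1) against 23.7 and 23.99 FPKM in WT cells at 0 h, at 62.2 and 62.8 FPKM in KO cells against 139 and 145 FPKM in WT cells at 6 h, and at 29.3 and 30.7 FPKM against 36.2 and 39.7 FPKM at 24 h. The mesenchymal marker VIM was at 1543 FPKM or more in every WT library, whereas the epithelial marker CDH1 was at 0.0246 FPKM or less and the oestrogen receptor gene ESR1 at 0.00894 FPKM or less. One library stood apart. The sum of FPKM over all features was between 566255 and 651080 in 11 libraries and 1423335 in KO 0h replicate 1. Across genes its log2 values correlated with those of KO 0h replicate 2 at an r of 0.774, against 0.980 to 0.986 between the replicates of the other 5 groups, and CDH1 was at 52.3 FPKM in it. The 0 h comparison therefore used KO 0h replicate 2 alone, and the values of KO 0h replicate 1 are given separately. FPKM values do not keep fragment numbers. The steps between the lowest values differed between libraries by up to 1.63-fold, which gives their relative depth only.

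The long arm of chromosome 10 carries many genes of interest to breast cancer biology: cell cycle kinases and motors, an interferon-induced gene cluster, enzymes of sugar and lipid metabolism, secreted proteases and growth factor receptors. Apart from a few clusters of related genes, neighbours on a chromosome do not in general share a function, and each gene is mostly controlled by its own promoter and enhancers.

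The ratio of each gene was computed as log2 of (mean KO + 1) over (mean WT + 1), and was centred on the median over all 12126 features. That median was between 0.0001 and 0.009 before centring, so centring hardly moved the values. The libraries are bulk RNA, in which a lower level in every cell and a level lost in some of the cells cannot be told apart. Adding 1 to the FPKM value understates the change of genes with low levels. Placed in order along the chromosome, the genes split into a raised stretch of 96 genes and a lowered stretch of 229 genes. The turn, which is the single break that leaves the smallest summed distance of the genes from the median of their side, was the same in the 3 comparisons. It fell between TSPAN14 (from 82214038 to 82282391) and GHITM (from 85899185 to 85913311).

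The 250 bases upstream of the start of 3 genes, the pair at the turn and ADAM8 (the gene with the lowest average ratio over 6 h and 24 h), are shown because ETS1, the factor reduced in the KO cells, binds DNA at GGAA cores. They come from RefSeq on GRCh38.p14, a later build than hg19, and are written 5′ to 3′ on the strand of the gene. Capitals mark GGAA or its complement TTCC.
TSPAN14, chr10:80454060-80454309, plus strand: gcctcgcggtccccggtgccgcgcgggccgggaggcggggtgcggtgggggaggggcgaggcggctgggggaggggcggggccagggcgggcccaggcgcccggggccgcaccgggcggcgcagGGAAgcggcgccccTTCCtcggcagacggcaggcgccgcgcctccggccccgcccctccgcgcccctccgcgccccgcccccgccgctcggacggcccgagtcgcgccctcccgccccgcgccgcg
GHITM, chr10:84139259-84139508, plus strand: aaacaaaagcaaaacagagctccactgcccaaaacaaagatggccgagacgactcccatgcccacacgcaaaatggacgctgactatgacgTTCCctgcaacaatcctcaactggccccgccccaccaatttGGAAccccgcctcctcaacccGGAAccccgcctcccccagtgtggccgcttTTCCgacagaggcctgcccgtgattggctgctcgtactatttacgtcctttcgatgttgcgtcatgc
ADAM8, chr10:133276869-133277118, minus strand: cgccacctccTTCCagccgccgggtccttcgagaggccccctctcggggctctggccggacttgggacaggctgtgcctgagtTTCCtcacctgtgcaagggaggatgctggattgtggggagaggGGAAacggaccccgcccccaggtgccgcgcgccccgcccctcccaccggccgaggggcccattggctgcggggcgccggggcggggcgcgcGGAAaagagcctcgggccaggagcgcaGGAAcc

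The TSPAN14 window held 2 such cores, the GHITM window 4 and the ADAM8 window 5. These 3 windows were picked and no count per window of other genes stands beside them, so they do not compare the stretches. SRGN, the gene with the highest average ratio over 6 h and 24 h, had no window in the RefSeq table. Of the 325 genes, 274 had an upstream window in the RefSeq table (81 raised, 193 lowered). GGAA on either strand was found in 91.4% of the raised and 92.2% of the lowered windows, against 92.7% of all 35116 windows of the table. The longer ETS site CCGGAAGT, which overlaps GGAA, was found in 8.64% and 6.22% (3.42% of all), and the AP-1 site TGACTCA in 3.70% and 3.11% (4.20% of all). The median GC content was 64.4% in both stretches and 58.0% in the table. Over all features tested, of which 78.3% had a window, the shares were 92.8% for GGAA, 7.58% for CCGGAAGT and 2.58% for TGACTCA, with a median GC content of 65.2%. The direction of the difference thus depended on the background for TGACTCA, for the GC content and, in the lowered stretch, for CCGGAAGT. A window was matched for 84.4% of the raised and 84.3% of the lowered genes, and those without one are not covered. No test was run, and nothing is called particular to the stretches. A match is a description of letters, not of binding.

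The raised stretch had median centred log2 ratios of 0.31, 0.34 and 0.37 (0, 6 and 24 h). The corresponding medians of the lowered stretch were -0.29, -0.25 and -0.26. Back on the linear scale of FPKM + 1 these medians stood for 124%, 127% and 129% of the WT level before the turn, and for 81.7%, 83.9% and 83.3% of it after the turn. The step at the turn was 0.61, 0.60 and 0.63 on the log2 scale. These values rest on a pseudocount of 1. Among genes with a mean of at least 5 FPKM in WT cells, where the pseudocount weighs little, the raised medians were 0.35, 0.39 and 0.39 (68 genes) and the lowered medians -0.31, -0.28 and -0.27 (162 genes).

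**Figure D1:**
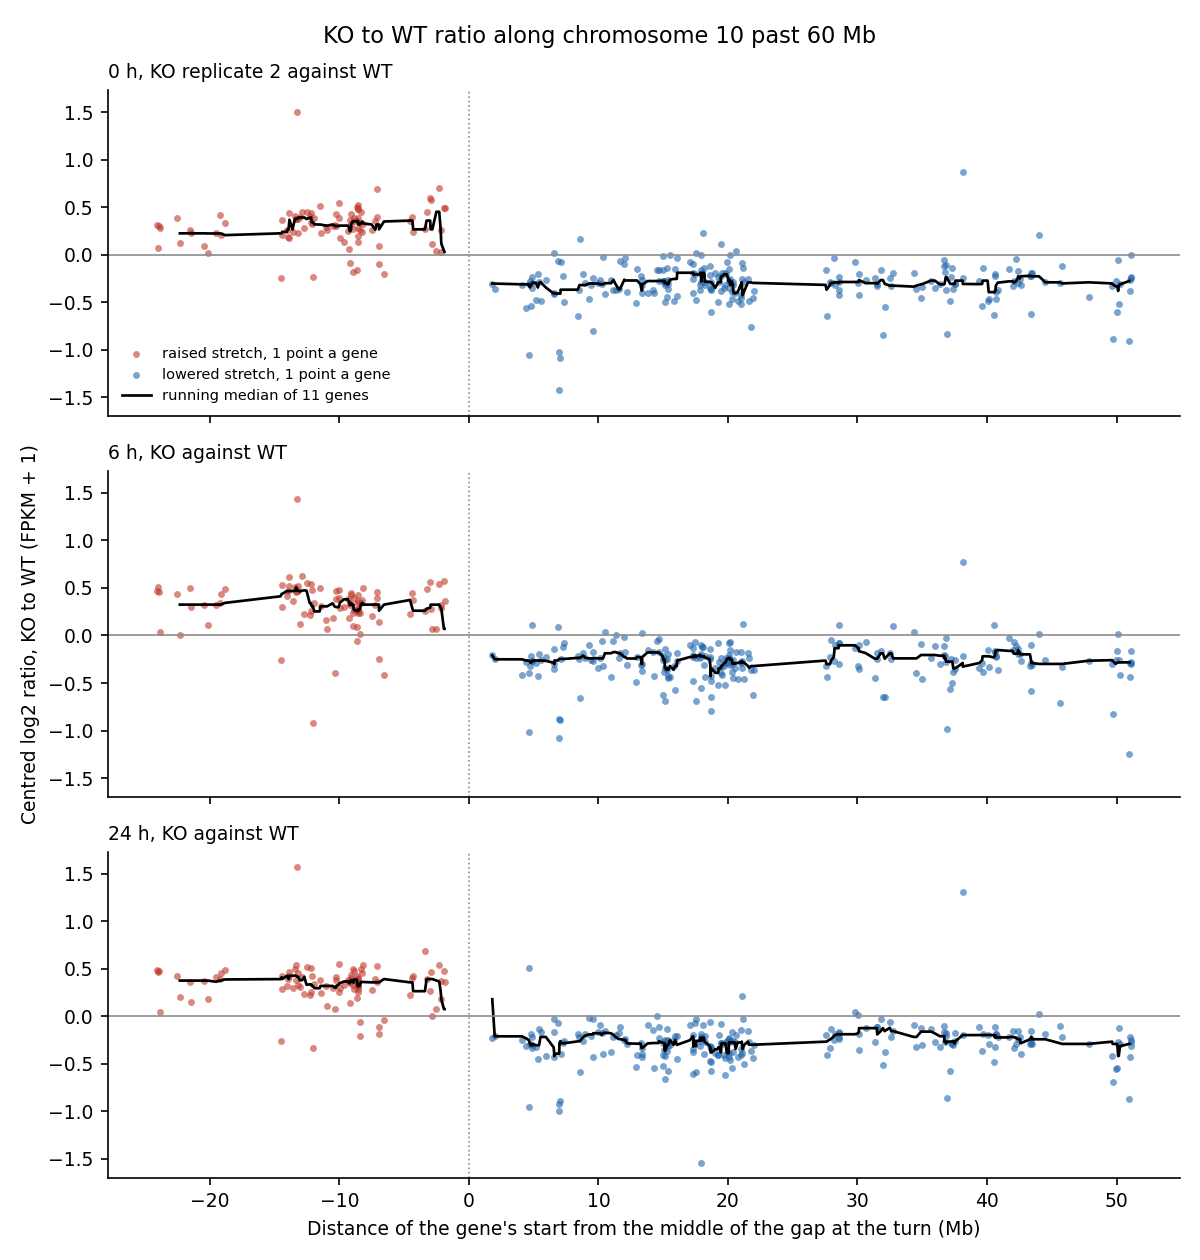
Centred log2 ratio of KO to WT (FPKM + 1, vertical axis) of the 325 genes against the distance of each gene's start from the middle of the gap at the turn (Mb, horizontal axis), at 0 h (KO replicate 2), 6 h and 24 h. Each point is a gene, and the black line is the running median of 11 genes, which lies above 0 in all 91 windows centred before the turn and below 0 in 224, 224 and 223 of the 224 windows after it.

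The turn was found at the same place in each of 5 KO libraries taken alone. KO 0h replicate 2 and the replicates of 6 h and 24 h placed it between TSPAN14 and GHITM, with medians of 0.31 to 0.38 before it and of -0.29 to -0.25 after it. KO 0h replicate 1 did not show a comparable step. There the best break fell 1 gene later, between GHITM and CCSER2, and left 97.9% of the summed distance that remains with no break, against 52.9% to 62.6% in the libraries of 6 h and 24 h and 54.7% in KO 0h replicate 2. The medians of the stretches in KO 0h replicate 1 were 0.10 and -0.30, with interquartile ranges of 1.22 and 1.24.

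The WT libraries give the background for these medians. Each WT library set against the other WT library of its time had medians within 0.033 of 0 in both stretches. The KO medians are those of the contrast that chose the region, so nothing is read from their distance to this range.

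**Figure D2:**
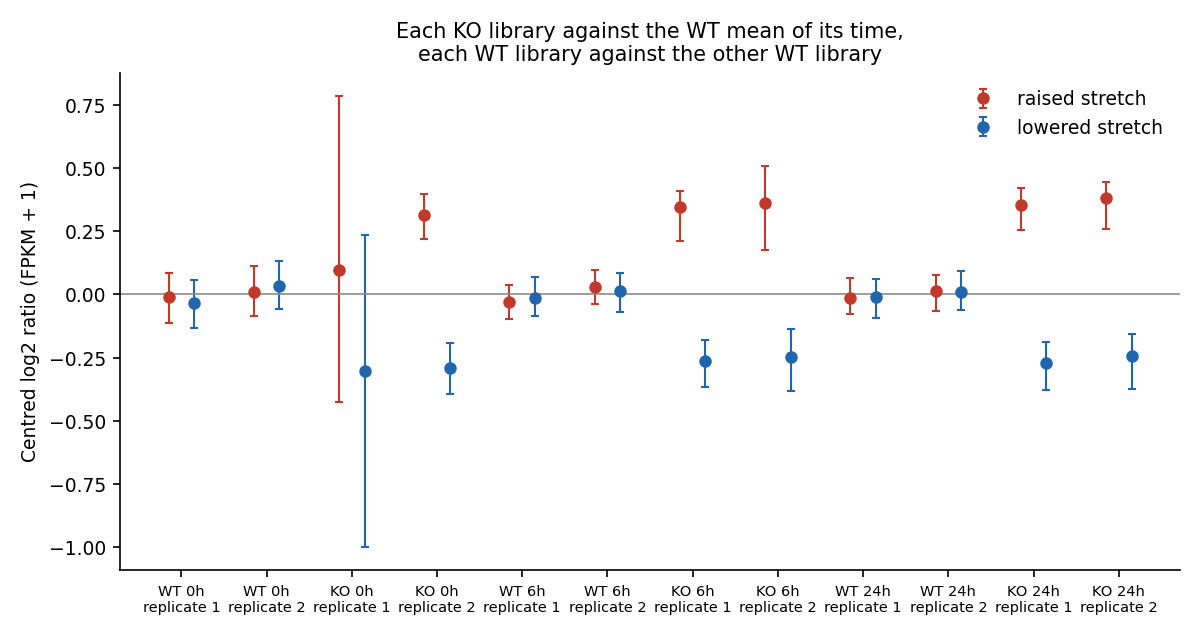
Median centred log2 ratio (FPKM + 1) of the raised stretch (96 genes) and the lowered stretch (229 genes) in each of the 12 libraries. KO libraries are set against the WT mean of their time and WT libraries against the other WT library, points are medians and bars run from the lower to the upper quartile of the genes. WT libraries sit within 0.033 of 0, and 5 of the 6 KO libraries sit between 0.31 and 0.38 in the raised and between -0.29 and -0.25 in the lowered stretch, whereas KO 0h replicate 1 has wide bars.

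No gene could place the turn more finely. Between TSPAN14 and GHITM lies a gap of 3.62 Mb with 2 listed features, SH2D4B and NRG3. SH2D4B, an adaptor protein with an SH2 domain, was at no more than 0.0623 FPKM in any library, and NRG3, a ligand of the ERBB4 receptor, was at 0 FPKM in all 12. The GENCODE annotation of the same build has no other protein-coding gene that starts in the gap. The ratio thus went from its raised to its lowered level somewhere within these 3.62 Mb, with no intermediate gene measured.

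The genes on each flank showed how abrupt the change was. Of the 10 genes just before the gap, 10 had a ratio above 0 in each comparison, with medians of 0.47, 0.34 and 0.37 at 0, 6 and 24 h. Of the 10 genes just after it, 10, 9 and 9 had a ratio below 0, with medians of -0.32, -0.27 and -0.27. The exceptions were the non-coding LOC439994 at 6 h (0.11) and the feature naming ADIRF and AGAP11 at 24 h (0.51).

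TSPAN14, a tetraspanin that helps the protease ADAM10 leave the endoplasmic reticulum, was the last gene before the gap. Its levels were 6.65 and 6.85 FPKM in WT cells and 9.91 FPKM in KO 0h replicate 2 (11.1 in replicate 1) at 0 h, 10.3 and 10.8 against 13.96 and 13.8 FPKM at 6 h, and 8.66 and 8.18 against 11.2 and 11.3 FPKM at 24 h. Every KO library lay above both WT libraries of its time, and the centred log2 ratios were 0.49, 0.36 and 0.37 (0, 6 and 24 h). GHITM, a protein of the inner mitochondrial membrane, was the first gene after the gap and showed the reverse. It was at 108 and 111 FPKM in WT cells against 87.97 FPKM in KO 0h replicate 2 (101 in replicate 1) at 0 h, at 107 and 112 against 93.2 and 97.1 FPKM at 6 h, and at 107 and 115 against 94.2 and 96.1 FPKM at 24 h. Its ratios were -0.31, -0.21 and -0.23 (0, 6 and 24 h), and its KO and WT values did not overlap at any time.

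The 4 genes before TSPAN14 lay on the same side. FAM213A, a redox protein related to peroxiredoxins, was at 23.3 and 21.5 FPKM in WT and 36.4 and 31.6 FPKM in KO cells at 6 h, with ratios of 0.49, 0.57 and 0.48 (0, 6 and 24 h). TMEM254, a small membrane protein, was at 3.25 and 4.11 against 5.26 and 6.41 FPKM, with ratios of 0.70, 0.54 and 0.54 (0, 6 and 24 h). Both were among the 5 highest averages over 6 h and 24 h in the region. ANXA11, which binds phospholipids in the presence of calcium, was at 52.3 and 53.4 against 67.1 and 63.6 FPKM, and the long non-coding RNA LINC00857 at 1.50 and 1.77 against 2.25 and 2.39 FPKM. For LINC00857 the ratio was 0.03 at 0 h, where the KO value of 5.24 FPKM lay just above the WT values of 5.19 and 5.03 FPKM, and 0.32 and 0.38 at the later times.

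The 4 genes after GHITM lay on the lowered side. CCSER2, a coiled-coil protein that bundles microtubules, was at 4.002 and 4.24 FPKM in WT and 3.20 and 3.46 FPKM in KO cells at 6 h. WAPAL, which releases cohesin from chromosomes, was at 17.9 and 19.3 against 13.7 and 13.9 FPKM, and BMPR1A, a type I receptor for bone morphogenetic proteins, at 4.59 and 5.32 against 3.94 and 3.97 FPKM. None of the KO values of these 3 genes reached the WT range of the same time at 6 h or 24 h. SNCG, γ-synuclein, stood lower than its neighbours, at 17.3 and 14.9 against 8.39 and 6.59 FPKM at 6 h and 40.6 and 34.6 against 20.2 and 17.9 FPKM at 24 h, with ratios of -1.06, -1.02 and -0.96 (0, 6 and 24 h).

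**Figure D3:**
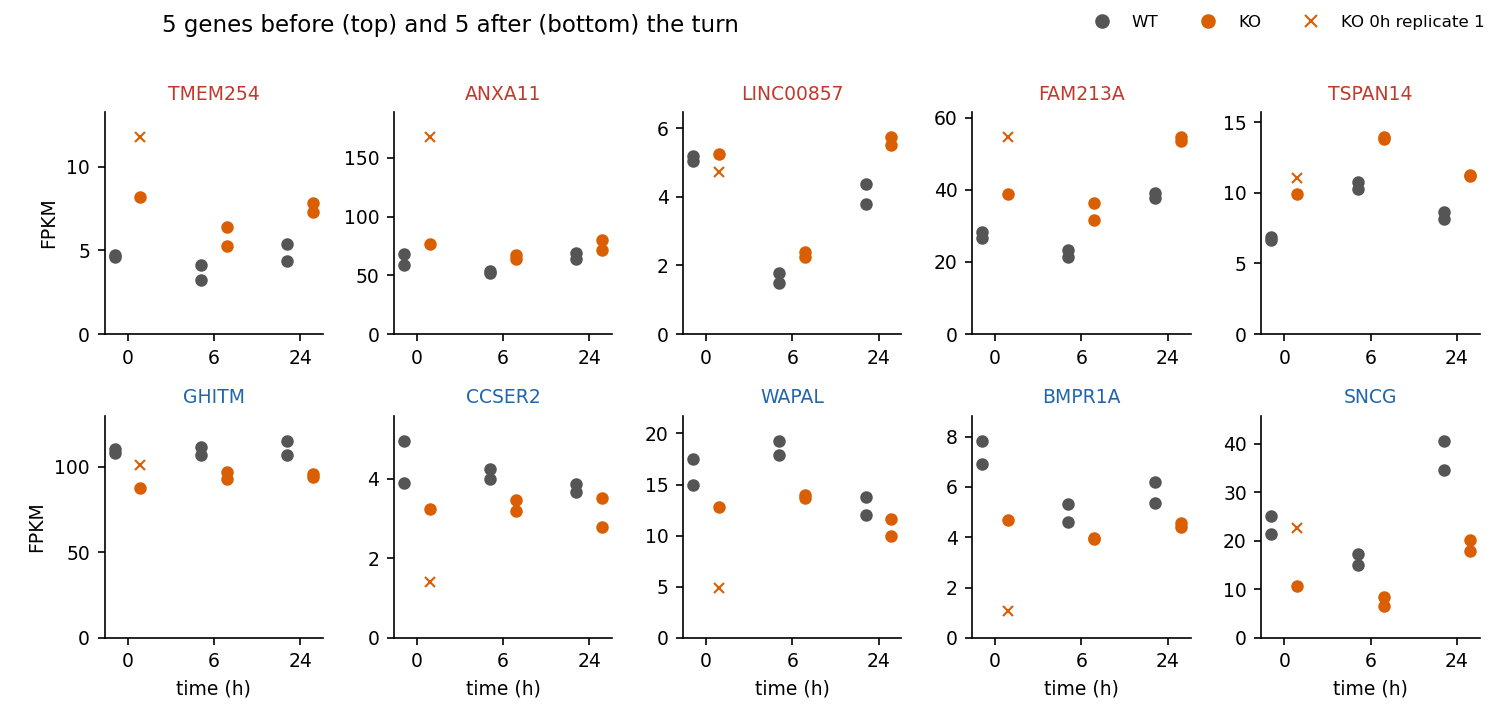
FPKM (vertical axis, from 0, on a scale of its own for each gene) at 0, 6 and 24 h in WT (grey) and KO (orange) libraries of the 5 genes before the turn (top row) and the 5 after it (bottom row). Each point is a library, and the cross is KO 0h replicate 1, which stands apart. At 6 h and 24 h both KO points lie above both WT points in each gene of the top row and below them in each gene of the bottom row.

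How even the shift was from gene to gene is shown by its spread. The interquartile range of the ratios was 0.18, 0.23 and 0.17 (0, 6 and 24 h) in the raised stretch and 0.20, 0.19 and 0.20 in the lowered stretch. Genes of the other chromosomes, which had medians within 0.002 of 0, spread as widely, with interquartile ranges of 0.20, 0.21 and 0.20. Within the 2 stretches the genes thus scattered around a displaced level about as much as genes elsewhere scattered around 0. Between the WT libraries of one time the interquartile range was 0.14 to 0.20 in the raised stretch. That range sets single libraries against each other, whereas the 6 h and 24 h ratios compare means of 2 libraries. Averaging narrows the spread between replicates, so the replicate range and that of the ratios are not on the same footing.

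Most genes lay on the side of their stretch. Of the 96 raised genes, 89, 90 and 89 had a ratio above 0 at 0, 6 and 24 h, and 84 had one at all 3 times. Of the 229 lowered genes, 220, 216 and 222 had a ratio below 0, and 204 had one at all 3 times. By the centring, 50% of all features lay above 0 and 50% below it in each comparison. The region was chosen on this contrast, so nothing is read from the counts. Some of the exceptions were neighbours. Among the raised genes below 0, ZNF503 and C10orf11 were adjacent at each time. At 24 h they were joined by ZNF503-AS2 in a run of 3, and PLAU and C10orf55 formed another pair, so that 5 of the 7 adjoined another exception. However, PLAU and C10orf55 share a listed start, as do ZNF503-AS2 and ZNF503. Their reads may be split between them, so they are not separate places on the chromosome. The longest run of lowered genes above 0 was 1 at 0 h, 2 at 6 h (ATRNL1 and HSPA12A) and 2 at 24 h (GPAM and ACSL5).

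The order of the single libraries was counted as well. In the raised stretch both KO libraries lay above both WT libraries in 83 genes of 96 at 6 h and in 83 at 24 h, where 28.1% and 26.1% of all features did so. In the lowered stretch both KO libraries lay below both WT libraries in 188 genes of 229 at 6 h and in 195 at 24 h, where 26.1% and 25.5% of all features did so. At both times together the counts were 79 of 96 (13.9% of all features) and 168 of 229 (14.7% of all features). At 0 h KO replicate 2 lay above both WT libraries in 84 raised genes (35.2% of all features) and below both in 207 lowered genes (32.9% of all features). These comparisons are the ones the region was chosen on, and nothing is read from the counts.

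With the pseudocount of 1, the median ratios were smaller in genes under 2 FPKM than in genes of 20 FPKM or more. In the raised stretch the 16 genes with less than 2 FPKM in WT cells had medians of 0.05, 0.08 and 0.12, against 0.34, 0.42 and 0.39 for the 31 genes with 20 FPKM or more. In the lowered stretch the 29 genes under 2 FPKM had medians of -0.16, -0.24 and -0.21, against -0.30, -0.28 and -0.28 for the 65 genes from 20 FPKM. The order was not even, as the 38 lowered genes from 2 to under 5 FPKM had a median of -0.17 at 6 h. The pseudocount of 1 lowers the size of a ratio at such levels. Without pseudocount or centring, lowered genes under 5 FPKM had median levels of 76.3%, 82.2% and 81.0% of WT (0, 6 and 24 h). Those at 5 FPKM or more had 79.6%, 81.8% and 82.2%. For raised genes these medians were 116%, 123% and 130% under 5 FPKM, against 130%, 133% and 133%. The gene with the highest level in the raised stretch, RPS24, a protein of the small ribosomal subunit, was at 2722 and 3028 FPKM in WT and 3958 and 3538 FPKM in KO cells at 6 h, with a ratio of 0.37.

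Along each stretch the medians of bins of 5 Mb kept their sign but not their size. In the 5 bins up to the turn, the 0 h medians lay between 0.22 and 0.45, the 6 h medians ran from 0.27 to 0.40 and those of 24 h from 0.35 to 0.39. In the 11 bins from there to the end of the chromosome, the 0 h medians lay between -0.40 and -0.23, the 6 h medians between -0.29 and -0.13 and those of 24 h between -0.36 and -0.14. Spearman's rho between the ratio and the position within a stretch was between -0.20 and 0.15. A gene's distance from the median of its stretch was hardly related to that of the next gene, with r between 0.01 and 0.18 over neighbouring pairs, which overlap and share the stretch.

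A second break added little. When 2 breaks were allowed, 1 of them stayed at the same gap in each comparison, and the other fell between SUPV3L1 and HK1 at 6 h, between CCAR1 and DDX50 at 0 h and between MXI1 and SMNDC1 at 24 h. At 6 h the 28 genes up to SUPV3L1 had a median of 0.45 and the 68 genes from HK1 to TSPAN14 one of 0.30, and the second break lowered the remaining distance from 56.5% to 55.4%. Genes just before 60 Mb were above 0 too. Chromosome 10 between 50 and 55 Mb had medians of 0.20, 0.25 and 0.30 over 10 genes, whereas the bin from 45 to 50 Mb had medians of 0.01, 0.08 and 0.14 over 16 genes.

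The 2 stretches were at the ends of the range for the whole genome. Among 227 bins of 10 Mb with at least 20 features, chromosome 10 from 70 to 80 Mb had the highest median at all 3 times (0.32, 0.34 and 0.35 over 68 genes, all in the raised stretch). The lowest was chromosome 10 from 90 to 100 Mb at 0 h (-0.30) and from 100 to 110 Mb at 6 h (-0.27), and a bin of chromosome 9 at 24 h. The 216 bins of other chromosomes had medians from -0.25 to 0.19 at 6 h. The end of chromosome 9 from 120 Mb (213 genes) had medians of -0.18, -0.25 and -0.26 and chromosome 17 below 20 Mb (204 genes) medians of -0.19, -0.22 and -0.25. The genes of chromosome 10 below 60 Mb (157 genes) had medians of 0.03, 0.06 and 0.07. Lowered stretches of a like median thus lay elsewhere in the genome too, while none of the bins of other chromosomes reached the median of chromosome 10 from 70 to 80 Mb. No test was run on these differences.

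**Figure D4:**
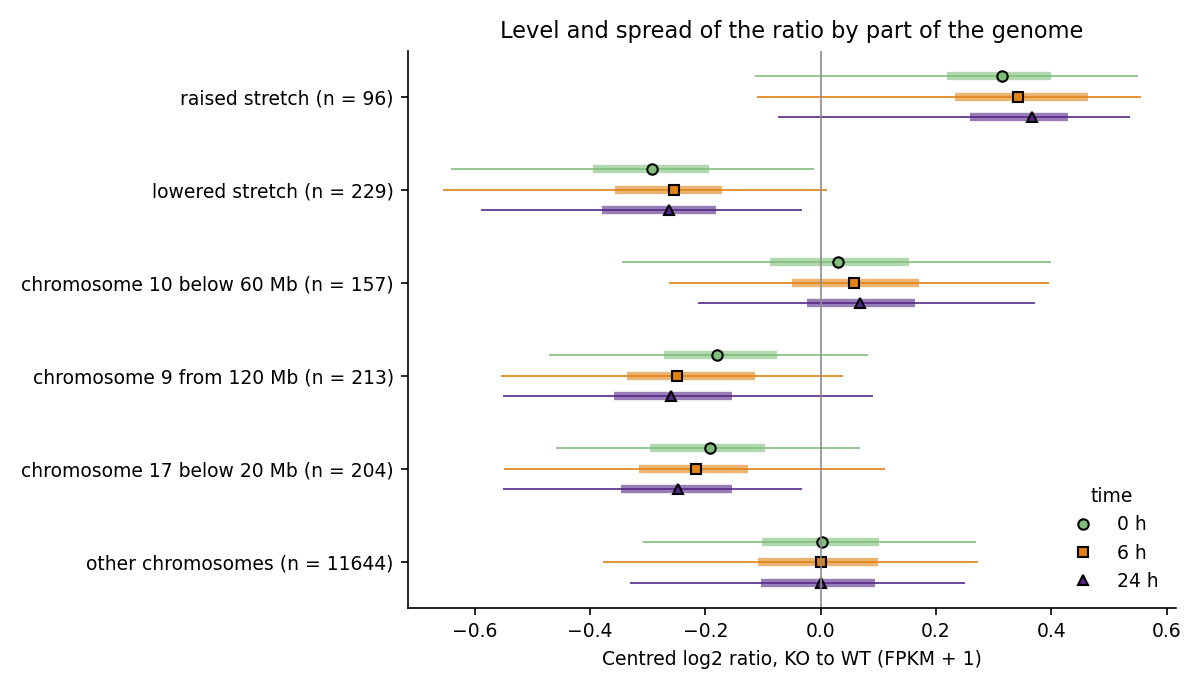
Centred log2 ratio of KO to WT (FPKM + 1) at 0 h (KO replicate 2), 6 h and 24 h for the raised and the lowered stretch, the rest of chromosome 10, the ends of chromosomes 9 and 17, and all chromosomes other than 10. Symbols are medians over genes, thick bars run from the lower to the upper quartile and thin lines from the 5th to the 95th percentile. The raised stretch lies right of 0 at all 3 times, and its quartiles do not reach those of the lowered stretch.

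The ratios of 6 h and 24 h correlated more with each other than with those of 0 h. Over the 325 genes Pearson's r between the ratios of 6 h and 24 h was 0.88, and much of that is the difference between the stretches. Within the raised stretch r was 0.81 and Spearman's rho 0.70 (96 genes), within the lowered stretch r was 0.66 and rho 0.53 (229 genes), and over the 11644 genes of other chromosomes rho was 0.55. Between 0 h and 6 h rho was 0.47 in the raised and 0.31 in the lowered stretch, and between 0 h and 24 h it was 0.43 and 0.31, against 0.37 and 0.30 on other chromosomes. At 0 h the ratio rests on 1 KO library. These comparisons share no library but come from the same cells, and genes of one library are not independent.

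The genes farthest from 0 went well beyond the level of their stretch. SRGN, serglycin, the core protein of an intracellular and secreted proteoglycan, lies from 70847828 to 70864567. It was at 31.4 and 30.7 FPKM in WT cells against 89.5 FPKM in KO 0h replicate 2 (74.6 in replicate 1) at 0 h, at 63.02 and 61.8 against 165 and 178 FPKM at 6 h, and at 48.7 and 49.03 against 155 and 142 FPKM at 24 h. The KO libraries were above the WT libraries at every time, by ratios of 1.50, 1.43 and 1.57 (0, 6 and 24 h), against 0.70 or less for all other raised genes. COL13A1, a transmembrane collagen, was at 87.9 and 77.8 against 122 and 123 FPKM at 6 h and 56.7 and 52.9 against 85.5 and 73.6 FPKM at 24 h, with ratios of 0.45, 0.55 and 0.52 (0, 6 and 24 h).

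At the other end was ADAM8, a membrane metalloprotease with a known part in cell invasion, near the end of the chromosome (from 135075920 to 135090407). It was at 10.4 and 8.63 FPKM in WT cells against 4.61 FPKM in KO 0h replicate 2 (10.6 in replicate 1) at 0 h, at 13.8 and 12.2 against 4.95 and 4.97 FPKM at 6 h, and at 28.3 and 26.3 against 15.5 and 13.5 FPKM at 24 h. The ratios were -0.90, -1.24 and -0.88 (0, 6 and 24 h), and every KO library except KO 0h replicate 1 lay below the WT libraries of its time. GRK5, a kinase that desensitises G protein-coupled receptors, was at 4.94 and 5.31 against 1.97 and 2.28 FPKM at 6 h and 8.05 and 7.37 against 3.88 and 3.78 FPKM at 24 h, with ratios of -0.84, -0.98 and -0.86 (0, 6 and 24 h).

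The IFIT cluster, with 4 measured genes whose interferon-induced products bind viral RNA, lay in the lowered stretch. IFIT3 was at 15.8 and 15.9 FPKM in WT and 6.97 and 6.998 FPKM in KO cells at 6 h, with ratios of -1.03, -1.08 and -0.997 (0, 6 and 24 h). IFIT2 was at 4.18 and 4.36 against 1.74 and 2.02 FPKM, with ratios of -1.43, -0.88 and -0.92 (0, 6 and 24 h). IFIT1 was at 2.47 and 2.83 against 1.02 and 0.956 FPKM, with ratios of -1.08, -0.89 and -0.89 (0, 6 and 24 h). These 3 genes were lower than nearly all other genes of the stretch. IFIT5, the fourth member, was named after its values were seen: it was at 8.31 and 8.54 against 6.87 and 7.11 FPKM, with ratios of -0.07, -0.25 and -0.39 (0, 6 and 24 h), near the level of the stretch at 6 h.

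A few genes went against their stretch. PPAPDC1A, a lipid phosphatase of the plasma membrane in the lowered stretch, was at 2.38 and 2.26 FPKM in WT and 4.50 and 4.88 FPKM in KO cells at 6 h and at 0.839 and 1.21 against 4.20 and 3.89 FPKM at 24 h, with ratios of 0.87, 0.77 and 1.31 (0, 6 and 24 h). It was the 1 lowered gene of 229 whose KO libraries were above the WT libraries at both times, where 13.9% of all features were. PPAPDC1A shares a listed start with WDR11, so their reads may be split between them. WDR11 had ratios of -0.25, -0.22 and -0.20 (0, 6 and 24 h). In the raised stretch 3 genes of 96 were below at both times, where 14.7% of all features were. The stretches were chosen on this contrast, so nothing is read from these counts. LRRC20, a leucine-rich repeat protein, was at 3.99 and 3.87 against 1.67 and 1.56 FPKM at 6 h and 6.65 and 6.33 against 5.01 and 4.93 FPKM at 24 h. DNAJC12, a co-chaperone of HSP70, and ZNF503, a zinc finger repressor, had low levels, with DNAJC12 at 1.31 and 1.81 against 1.18 and 1.13 FPKM and ZNF503 at 2.04 and 1.62 against 1.49 and 1.51 FPKM at 24 h.

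PLAU, the urokinase plasminogen activator, lay on different sides at 6 h and 24 h. It was at 380.4 and 382 FPKM in WT and 457 and 447 FPKM in KO cells at 6 h, and at 82.5 and 79.9 against 71.7 and 69.7 FPKM at 24 h. The KO libraries were above the WT libraries at 6 h and below them at 24 h, with ratios of 0.24 and -0.21. The difference between the times was not tested.

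Most genes of the role lists, which were drawn up with earlier results known, lay on the side of the stretch that holds them. By construction, as many features of the whole table lie above 0 as below it. Of the listed genes of the cell cycle and DNA repair, the 4 raised ones were above 0 and the 11 lowered ones below 0 at all 3 times. CDK1, the kinase that drives entry into mitosis, was at 71.5 and 77.9 FPKM in WT and 100.02 and 113 FPKM in KO cells at 6 h. KIF11, a motor protein of the same phase that lies after the turn, was at 22.4 and 23.7 against 20.96 and 23.4 FPKM, while HELLS, a chromatin remodeller of the lowered stretch, was at 11.7 and 11.2 against 8.60 and 9.49 FPKM and the proliferation marker MKI67 at 72.96 and 72.3 against 62.8 and 53.1 FPKM. The KIF11 values overlapped at 6 h, with a ratio of -0.06, while those of CDK1 and MKI67 did not.

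Of the 12 listed genes of apoptosis and stress, 5 raised genes were above 0 and 7 lowered genes below 0 at all 3 times. The list holds the co-chaperones DNAJB12 and DNAJC9 but not DNAJC12, which was below 0 at all 3 times in the raised stretch. DDIT4, an inhibitor of mTOR complex 1 induced by stress, was at 66.2 and 65.8 FPKM in WT and 97.9 and 96.9 FPKM in KO cells at 24 h. FAS, the death receptor, came closest to 0 at 24 h, with overlapping values of 1.14 and 1.11 against 1.06 and 1.12 FPKM. BAG3, a co-chaperone induced by stress, was at 63.5 and 58.01 against 45.3 and 40.7 FPKM at 6 h.

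Among enzymes and carriers of metabolism, the 5 raised genes were above 0 at all 3 times. VDAC2, a channel of the outer mitochondrial membrane, was at 163 and 191 FPKM in WT and 254 and 237 FPKM in KO cells at 6 h, and ADK, adenosine kinase, at 41.5 and 44.6 against 58.2 and 64.8 FPKM. Of the 13 lowered genes, 13, 12 and 11 were below 0 at 0, 6 and 24 h. PGAM1, a mutase of glycolysis, was at 449 and 455 against 357 and 341 FPKM, and GSTO1, a glutathione transferase, at 238 and 245 against 160.0 and 155 FPKM. The exceptions were LIPA, the acid lipase of lysosomes, at 6 h (0.09), and the lipid enzymes GPAM (0.05) and ACSL5 (0.02) at 24 h.

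For genes of matrix, proteases, adhesion and actin the counts were 7 of 7 raised genes above 0 at 0 h and 6 h and 6 of 7 at 24 h, where PLAU was the exception, and 7 of 8, 8 of 8 and 8 of 8 lowered genes below 0, with smooth muscle actin ACTA2 the exception at 0 h (0.02). VCL, vinculin, which links adhesions to actin, was at 45.3 and 47.5 FPKM in WT and 68.1 and 64.3 FPKM in KO cells at 24 h. TSPAN15, another tetraspanin, was at 14.8 and 15.6 against 21.6 and 19.9 FPKM. Both genes lie in the raised stretch. On the lowered side PDLIM1, an adaptor of actin filaments, was at 53.9 and 49.2 against 35.5 and 35.7 FPKM, and MYOF, myoferlin, a protein of membrane repair, was at 50.7 and 52.5 against 39.4 and 40.5 FPKM. The 24 listed genes of signalling and transcription, 7 raised and 17 lowered, were on the side of their stretch at all 3 times. Other regulators, not on that list, were not: ZNF503 is described above, and LCOR, a nuclear receptor corepressor of the lowered stretch, had a ratio of 0.00690 at 24 h. LDB1, a cofactor of LIM domain proteins after the turn, was at 17.6 and 17.3 against 11.2 and 10.9 FPKM. PPP3CB, a catalytic subunit of calcineurin, the phosphatase that activates NFAT, was at 11.1 and 11.2 against 15.4 and 16.5 FPKM at 24 h, and CHUK, a kinase of the NF-κB pathway, at 13.2 and 14.6 against 10.8 and 12.2 FPKM.

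The response of WT cells to PMA/Ionomycin was the measure that the choice of the genes had not used, although the WT libraries of each time also enter the ratios above. It was tested with limma over all 12126 features. Among the 325 genes, 55 rose and 103 fell at 6 h, which is 16.9% and 31.7%, where 21.3% and 20.03% of all features rose and fell. At 24 h 69 rose and 126 fell, which is 21.2% and 38.8%, where 25.6% and 26.2% of all features did so. The median log2 fold change of the genes was -0.08 at 6 h and -0.15 at 24 h, against -0.01 at both times over all features. Falls thus took a larger share of these genes than of all features. The counts depended on single libraries, in the region and over all features alike. Leaving out any 1 WT library left fewer rises and fewer falls called in both.

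The shares were close in both stretches, and their difference was not tested. At 6 h 17 raised genes rose and 32 fell (17.7% and 33.3%), and 38 lowered genes rose and 71 fell (16.6% and 31.0%). At 24 h 21 raised genes rose and 37 fell (21.9% and 38.5%), and 48 lowered genes rose and 89 fell (21.0% and 38.9%). The split between rises and falls depended on the scaling. With libraries rescaled to the same sum (TPM), the 6 h split was 41 against 129 among the genes and 1846 against 3600 among all features. That scaling moved the median log2 fold change of all features to -0.12, and the falls still made up 39.7% of the genes against 29.7% of all features.

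**Figure D5:**
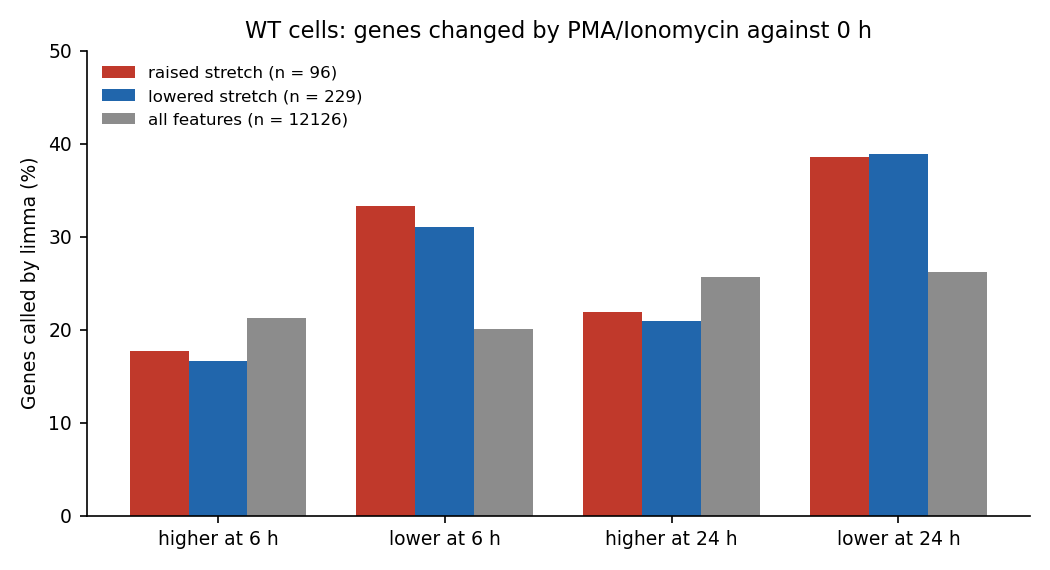
Share of genes (%, vertical axis from 0) called higher or lower by limma (adjusted p under 0.05) in WT cells at 6 h and 24 h of PMA/Ionomycin against 0 h, in the raised stretch, the lowered stretch and all features tested. At 6 h 33.3% of the raised and 31.0% of the lowered genes were called lower, against 20.03% of all features.

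The largest rises at 6 h were those of NFKB2 and DUSP5. NFKB2, which encodes an NF-κB precursor, went from 11.6 and 11.3 FPKM at 0 h to 137 and 126 FPKM at 6 h and 67.8 and 65.3 FPKM at 24 h, a log2 fold change at 6 h of 3.41 ± 0.06 (SE; limma adjusted p = 1.8e-07). DUSP5, a phosphatase that acts on ERK, went from 17.2 and 16.9 FPKM to 169 and 172 and 141 and 143 FPKM, a log2 fold change of 3.25 ± 0.05 (SE; limma adjusted p = 8.7e-08). In KO cells NFKB2 went from 10.2 FPKM (replicate 2; 9.92 in replicate 1) to 115 and 109 FPKM and DUSP5 from 16.7 (11.5 in replicate 1) to 146 and 139.9 FPKM. Both genes lie in the lowered stretch, and their KO values stayed below the WT values at 6 h and 24 h. The third of the highest, the small nucleolar RNA SNORA12, is listed at 0 in both WT libraries of 0 h and at 4.74 and 5.03 FPKM at 6 h, a log2 fold change of 2.56 ± 0.62 (SE; limma adjusted p = 0.016). It was between 0 and 6.05 FPKM in the other libraries. It was at 0 in WT 24h replicate 2, in KO 6h replicate 1 and in every KO library of 0 h and 24 h. Replicates thus differed as much as the times. SNORA12 shares a listed start with CWF19L1, so reads may be split between them.

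The deepest falls at 6 h were in IFIT2, IFIT1 and ZCCHC24. IFIT2 went from 15.03 and 14.6 FPKM to 4.18 and 4.36 FPKM, a log2 fold change of -1.59 ± 0.08 (SE; limma adjusted p = 1.6e-05), and IFIT1 from 8.70 and 9.80 to 2.47 and 2.83 FPKM, one of -1.49 ± 0.09 (SE; limma adjusted p = 5.9e-05). ZCCHC24, a zinc finger protein of the raised stretch, went from 11.3 and 11.4 to 4.02 and 3.67 FPKM, one of -1.36 ± 0.07 (SE; limma adjusted p = 2.6e-05). In KO cells ZCCHC24 went from 17.5 FPKM in replicate 2 at 0 h to 5.02 and 4.85 FPKM at 6 h.

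The counts by role stand beside 21.3% higher and 20.03% lower among all features at 6 h, and 25.6% and 26.2% at 24 h, and no role was tested as a group. Of 15 cell cycle and DNA repair genes, 1 rose and 8 fell by 6 h, and by 24 h 2 had risen and 11 had fallen, with median log2 fold changes of -0.26 and -0.48 against -0.01 at both times over all features. CDK1 went from 93.4 and 104 FPKM at 0 h to 46.6 and 49.8 FPKM at 24 h, a log2 fold change of -1.02 ± 0.08 (SE; limma adjusted p = 0.00011), and KIF11 from 37.4 and 42.6 to 16.2 and 17.8 FPKM, one of -1.19 ± 0.08 (SE; limma adjusted p = 8.1e-05). Of 24 signalling and transcription genes, 3 rose and 10 fell at 6 h. Of 15 genes of matrix, proteases, adhesion and actin, 7 rose and 6 fell at 6 h. SRGN rose at 6 h by a log2 value of 0.98 ± 0.05 (SE; limma adjusted p = 2.7e-05), and ADAM8 rose by 0.42 ± 0.10 (SE; limma adjusted p = 0.016) at 6 h and 1.43 ± 0.10 (SE; limma adjusted p = 7.8e-05) at 24 h. PLAU rose by 0.96 ± 0.06 (SE; limma adjusted p = 4.6e-05) at 6 h and was lower than at 0 h by 24 h, with a log2 fold change of -1.26 ± 0.06 (SE; limma adjusted p = 1.5e-05). The 18 metabolism genes gave 5 rises and 2 falls at 6 h and the 12 genes of apoptosis and stress 2 rises and 3 falls.

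Genes at the limit of 0.5 FPKM show what it left out. Just inside were ZNF503-AS2 at a WT mean of 0.504 FPKM, LOXL4 at 0.511 and SEMA4G at 0.553, and just outside were LOC100505839 at 0.478, LOC100128054 at 0.476 and COL17A1 at 0.470. Of the 256 features under the limit, 88 were at 0 in all 12 libraries. Among the 325 genes, 4 features name more than 1 gene and 35 share a listed position with another, so that their reads may be split between them.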

How the data were processed

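The authors mapped stranded mRNA sequences of 12 libraries to hg19 with TopHat, estimated expression with Cufflinks, and deposited FPKM values, 1 column per library. The annotation and any scaling between libraries are not given in the sources used here. The names of 2 columns (KO 6h and KO 0h, replicate 2) hold a digit in place of a letter and were matched to the only label left. FPKM values do not keep fragment numbers, so absolute depth is unknown and no counting interval was given.

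Members and gene lists were chosen with earlier results of these data known. KO to WT ratios were log2 of (mean + 1) differences, centred on the median of 12126 features, and the turn had at least 10 members a side. WT times were compared with limma 3.58.1 (lmFit, eBayes with trend, R 4.3.3) on log2(FPKM + 1) of the 6 WT libraries, with Benjamini-Hochberg adjustment over 12126 features and calls at an adjusted p under 0.05. Whether the biological replicates were separate cultures is not given in the sources used here, so p-values may measure technical spread only. On simulated data of 12126 features, 87.5% of changes of log2 1 and 30.5% of changes of log2 0.5 were recovered. Named genes were the 5 on each side of the turn, the 5 highest and 5 lowest averages, the 3 farthest on the other side, the 3 highest and lowest WT responses, and role lists. Alternatives were other pseudocounts, filters, scalings, a replicate block and leaving out libraries. Upstream sequences came from RefSeq (GRCh38.p14), and 318 of 325 symbols were found in the GENCODE annotation of hg19.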

Additional observations from a re-analysis of the deposited data

How the results depend on the processing

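The place of the turn was the same under a pseudocount of 0.1, a WT mean of at least 5 FPKM, least squares, 2 breaks and each left-out library, and moved only with KO 0h replicate 1 alone, where the first gene after it started at 86.0884 Mb. That library alone gave a raised median of 0.0952 at 0 h, and the average of both KO 0h libraries, like it chosen after seeing the data, gave 0.157. The medians of the stretches kept their sign throughout and moved by more than the spread between libraries in these cases. With a pseudocount of 0.1 they were 0.342, 0.388 and 0.400 in the raised and -0.330, -0.294 and -0.291 in the lowered stretch (0, 6 and 24 h). Without a filter they were 0.255, 0.273 and 0.304, and -0.235, -0.192 and -0.202. At 5 FPKM or more, centred on the features of that level, the raised medians were 0.344 (0 h) and 0.377 (6 h) and the lowered ones -0.318 and -0.287. With TPM the 0 h lowered median was -0.306 and the 6 h raised median 0.370. Leaving out 1 library gave raised medians of 0.302 to 0.325 (0 h), 0.345 to 0.362 (6 h) and 0.357 to 0.382 (24 h), and lowered medians of -0.300 to -0.284, -0.265 to -0.248 and -0.273 to -0.245. In WT cells, leaving out 1 library left 34 to 54 genes of the region higher and 58 to 95 lower at 6 h, and 45 to 62 higher and 80 to 112 lower at 24 h. Over all features those counts were 1610 to 2490 and 1192 to 2202 at 6 h, and 2208 to 2928 and 2056 to 2980 at 24 h. The lowest counts of the region came without WT 6h replicate 2 (6 h) and without WT 24h replicate 1 (24 h). The lone library of a group is then assumed to vary like the others. A WT mean of at least 5 FPKM, with fewer features tested, gave 1570 features lower at 6 h. The replicate numbers showed no pairing of the WT libraries over all genes (correlations of the deviations of -0.026, -0.017 and -0.010). Such correlations cannot exclude a pairing that affects only some genes. The fit with the replicate block called 64 genes of the region higher and 110 lower at 6 h, and 72 and 137 at 24 h. The counts over all features under that fit are not given here, so nothing about the region is read from these. The call of SNORA12 at 6 h was lost in 5 settings.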
